A study of Mus musculus with 146 samples.

Results

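The maternal mRNA storage and decay factors described here are 10 genes, *Zar1*, *Btg4*, *Cpeb1*, *Ybx2*, *Patl2*, *Lsm14b*, *Pabpc1l*, *Eif4e1b*, *Cnot6l* and *Ddx6*. They were taken by symbol from the expression table of every library, and all 10 were found among 52605 gene symbols. The study deposited 146 single-cell libraries of germ cells from newborn (P0.5, or 0.5 days) female mice of strain C57/BL6J, made by Smart-seq2, a full-length single-cell RNA-seq method that starts from polyadenylated RNA. The cells came from 5 ovaries of pups of 1 litter, were dissociated with trypsin, picked by mouth pipette, and passed a qPCR screen of their cDNA for the germ cell gene *Vasa* (*Ddx4*) and against the somatic gene *Foxl2* before sequencing. No label ties a cell to an animal, so all cells counted as 1 sample. The values below therefore describe these cells and carry no test.

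In 7 pairs of libraries both libraries appeared to hold the same cell, since Pearson's r between them across 8851 genes was 0.984 to 0.994, against at most 0.771 in any other pair. Each such pair was averaged and counted as 1 cell. Counting each library on its own gave the same numbers of members past 1.5-fold in the cluster comparisons below. Cells with *Ddx4* under 1 TPM (a transcript's share of the cell's total, corrected for length) were left out, which removed 1 cell. In the removed cell *Cnot6l* stood at 68.4 TPM and *Ddx6* at 12.7 TPM, while *Ybx2* and *Cpeb1* were at 0. A kept cell had 4103140 to 17440700 reads on genes. All 6 germ cell markers examined, *Ddx4*, *Dazl*, *Mael*, *Tdrd1*, *Sycp3* and *Dppa3*, averaged 1 TPM or more. For *Ddx4* this was fixed beforehand, since the qPCR screen and the filter at 1 TPM both selected on it. Of 9 markers of pregranulosa cells, the somatic partners of oocytes, 8 averaged under 1 TPM, with summed levels from 0 to 81.6 TPM per cell, and 1 of the 8, *Foxl2*, is the gene the screen selected against. The summed level of 7 stromal markers ranged from 0 to 873 TPM. That of 8 blood and endothelial markers ranged from 0 to 324973 TPM with a median of 49.3 TPM, the highest being 1 haemoglobin-rich cell of cluster 1. The highest sums of these 8 markers in clusters 2 and 3 were 48602 and 43770 TPM.

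A growing oocyte makes mRNAs long before it uses them. Proteins of a shared particle hold these messages with short poly(A) tails and keep the cap from the translation machinery, and after meiosis resumes other factors lengthen the tails or recruit the deadenylase that removes them. YBX2 (MSY2), ZAR1, LSM14B, PATL2, DDX6 and EIF4E1B act mainly in storage and repression, CPEB1 reads the cytoplasmic polyadenylation element, PABPC1L binds poly(A) in oocytes, and BTG4 brings the CCR4-NOT deadenylase, of which CNOT6L is a catalytic subunit, to maternal mRNAs.

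To place the members on the course from germ cell cysts to follicles, the cells were clustered again from 18 stage genes of the study that are not members. Cluster 1 held 20 cells with the highest mean level of the meiotic gene *Sycp2* (502 TPM, against 161 and 65.8 TPM in clusters 2 and 3). Cluster 2 held 86 cells with the highest *Nobox* (311 TPM) and *Lhx8* (675 TPM), transcription factor genes needed for follicle formation. Cluster 3 held 32 cells with *Zp3*, a zona pellucida gene, at 568 TPM against 0.0896 TPM in cluster 1. The first principal component of the same genes ordered the cells, and the order was divided into 5 bins of 27 or 28 cells.

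By mean level over the kept cells the order was *Ybx2* (761 TPM), *Cpeb1* (263), *Btg4* (39.4), *Ddx6* (22.4), *Cnot6l* (18.3), *Lsm14b* (18.1), *Patl2* (5.05), *Eif4e1b* (4.02), *Zar1* (2.57) and *Pabpc1l* (1.09). *Ybx2* exceeded *Cpeb1* in 75.4% of cells, *Cpeb1* exceeded *Btg4* in 93.5%, and *Lsm14b* exceeded *Patl2* in 75.4%. Some other neighbours were closer: *Btg4* was above *Ddx6* in only 38 cells and below it in 89, *Ddx6* was above *Cnot6l* in 73 and below it in 64, and *Cnot6l* was above *Lsm14b* in 78 and below it in 59. *Ybx2* and *Cpeb1* reached 1 TPM in 99.3% of cells each, *Cnot6l* in 88.4%, *Ddx6* in 87.7% and *Lsm14b* in 69.6%. The other 5 were found in fewer, from 48 cells for *Eif4e1b* to 4 for *Pabpc1l*. A median cell held 6 of the 10 members at 1 TPM or more, with 5 in clusters 1 and 2 and 7 in cluster 3.

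**Figure D1:**
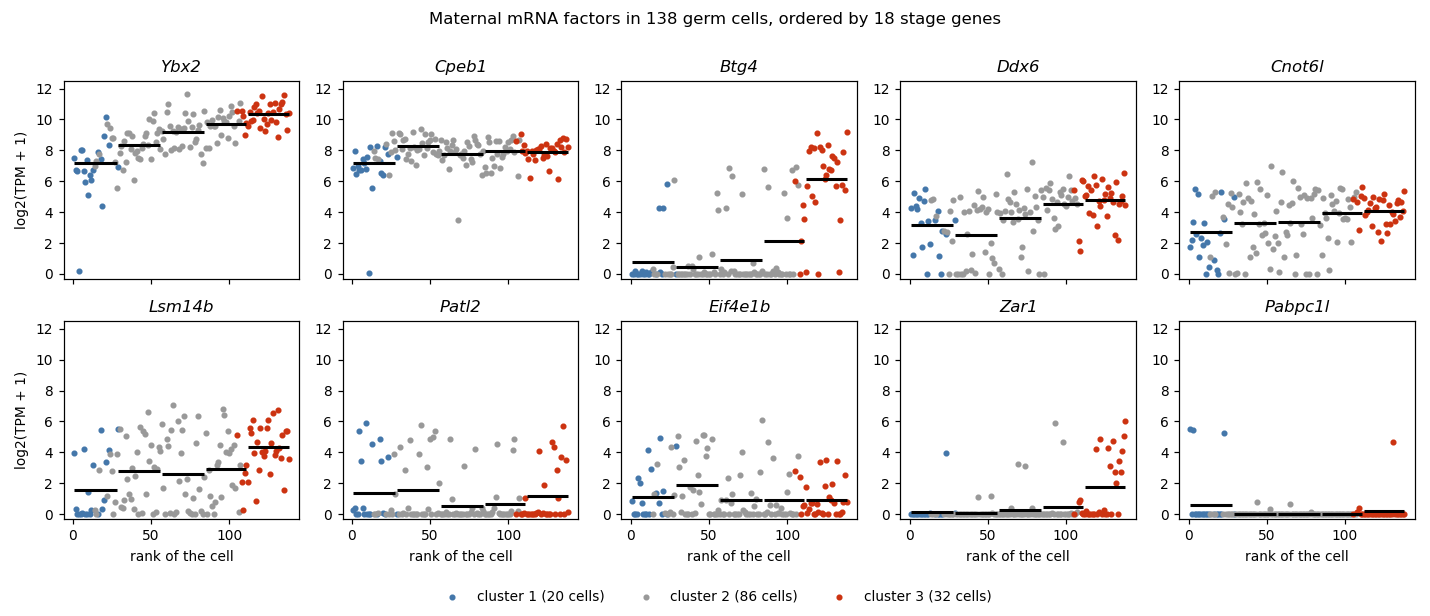
Level of each member in every cell, as log2(TPM + 1) on the vertical axis, against the rank of the cell along the order of 18 stage genes. Points are cells coloured by cluster and black bars are the bin means of the plotted values. *Ybx2* climbs through all bins, *Cpeb1* has a low start and its highest mean TPM in bin 2, and most cells of *Btg4* lie near 0 or above 3.

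More members were higher than lower in each step toward the zona-expressing cells, and the share of all genes stands beside each count. From cluster 1 to cluster 2, 5 of the 10 members were higher by 1.5-fold or more in mean TPM + 1 (a log2 ratio of 0.58), where 23.3% of 12472 coding genes were, and 2 were lower, where 25% of genes were. From cluster 2 to cluster 3, 9 members passed the filter of a mean of 1 TPM in either cluster. Of these, 5 were higher, against 18.1% of 12243 genes, and 1 was lower, against 30.6%. Between the outer clusters 7 of 10 were higher and 3 lower, against 26.4% and 38.8% of 12611 genes. The members' median log2 ratio was 0.71, 0.64 and 1.09 in these 3 comparisons, beside medians over all genes of -0.05, -0.21 and -0.26. Cluster 3 also differed in library quality, with a median of 14584 genes holding a read against 12278 and 12142, and a median spike-in level of 6285 TPM against 10771 and 12207. The part of this difference in the counts was not tested. On values scaled by the spike-ins 7 members were higher and 1 lower between the outer clusters, where 48.2% of all genes were higher, 19.8% lower and the median over all genes was itself 0.53.

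**Figure D2:**
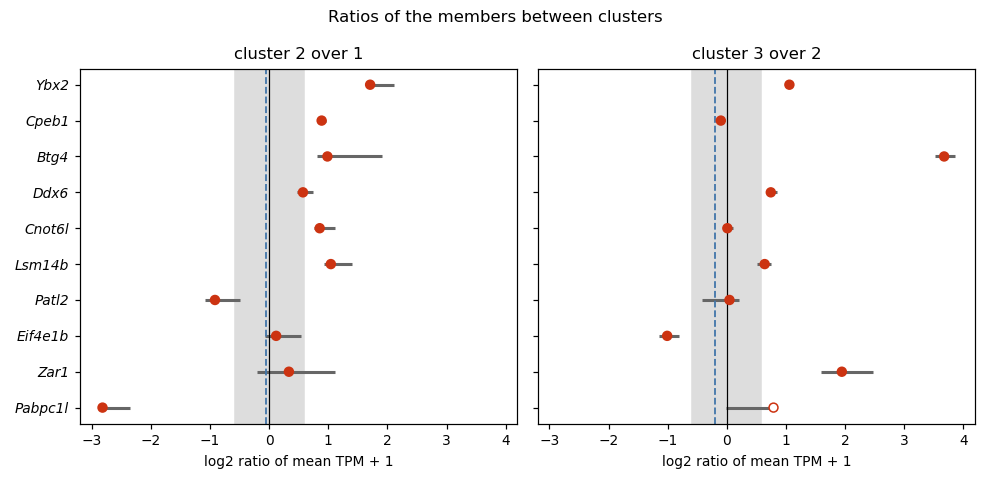
Log2 ratio of mean TPM + 1 for each member, cluster 2 over 1 on the left and cluster 3 over 2 on the right. Points are the ratios over all cells, grey lines their range when each cell was left out in turn, the shaded band is under 1.5-fold, the dashed line is the median of all genes, and the open point did not pass the filter on low levels. *Btg4* stands apart at 3.68 in the step to cluster 3.

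The promoters of the 4 members that the following account turns on are printed first, since *Ybx2* and *Btg4* were higher by 1.5-fold or more in each later cluster, *Zar1* in cluster 3 over cluster 2, and *Cpeb1* was level between those clusters in TPM. Each line is the RefSeq window of GRCm38.p6 from 250 bases before to 50 bases after a start site, 5′ to 3′ on the gene's strand, with every CANNTG (the E-box, bound by basic helix-loop-helix proteins) in capitals. The windows lie at chr11:69935649-69935948 (plus strand), chr9:51115751-51116050 (plus), chr5:72581035-72581334 (minus) and chr7:81454709-81455008 (minus). Those of *Btg4* and *Cpeb1* lie wholly inside the gene bounds given below, so they are not upstream of those bounds.
Ybx2: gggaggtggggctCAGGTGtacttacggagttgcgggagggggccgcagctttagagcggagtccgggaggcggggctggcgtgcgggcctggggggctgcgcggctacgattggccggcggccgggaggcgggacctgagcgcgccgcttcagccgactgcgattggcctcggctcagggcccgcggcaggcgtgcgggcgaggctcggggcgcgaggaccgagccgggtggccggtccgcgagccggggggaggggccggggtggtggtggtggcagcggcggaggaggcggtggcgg
Btg4: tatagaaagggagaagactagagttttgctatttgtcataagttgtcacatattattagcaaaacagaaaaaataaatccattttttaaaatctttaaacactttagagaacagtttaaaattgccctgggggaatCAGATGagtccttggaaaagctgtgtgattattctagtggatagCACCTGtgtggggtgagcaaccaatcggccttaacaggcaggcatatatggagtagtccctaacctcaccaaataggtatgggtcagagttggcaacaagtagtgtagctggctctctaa
Zar1: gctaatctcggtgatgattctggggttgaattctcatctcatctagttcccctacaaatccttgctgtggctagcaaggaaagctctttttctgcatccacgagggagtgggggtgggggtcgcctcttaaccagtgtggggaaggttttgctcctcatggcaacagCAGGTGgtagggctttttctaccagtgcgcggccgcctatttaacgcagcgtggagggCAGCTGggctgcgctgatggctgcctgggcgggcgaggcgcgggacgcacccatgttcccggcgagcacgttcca
Cpeb1: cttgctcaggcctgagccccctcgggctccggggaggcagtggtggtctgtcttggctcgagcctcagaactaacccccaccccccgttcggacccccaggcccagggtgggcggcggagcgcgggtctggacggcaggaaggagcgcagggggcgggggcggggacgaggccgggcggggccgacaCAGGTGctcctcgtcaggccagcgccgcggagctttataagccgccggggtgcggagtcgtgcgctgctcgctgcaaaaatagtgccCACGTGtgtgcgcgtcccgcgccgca
RefSeq windows were matched for 8 of the 10 members, 11 windows in all. CANNTG stood in 9 of the 11, and in 72.3% of 32851 mouse windows of the same length. TAATTG, the core read by homeodomain proteins such as NOBOX, stood in none of the 11 and in 8.0% of all. TATAAA stood in 1, at position -30 of *Cpeb1* on the strand opposite to the gene (TTTATA as printed), and in 13.6% of all. All motifs were searched on both strands. The windows also differed in base composition, with 78% G or C in the *Ybx2* window shown, 72.7% in *Cpeb1*, 58.7% in *Zar1* and 39% in *Btg4*.

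*Ybx2* encodes the Y-box protein that coats stored mRNA in germ cells, and lies at chr11:69935796-69941605 on the plus strand (GRCm38, GENCODE M21). It was the most abundant member and climbed step by step. The lowest, median and highest cells held 0.123, 111.8 and 1143 TPM in cluster 1, 46.4, 526 and 3227 TPM in cluster 2, and 476, 1357 and 3011 TPM in cluster 3. The clusters overlapped, yet no cell of cluster 3 was under 476 TPM, whereas the median of cluster 1 was 111.8 TPM. Means were 202 ± 251 (SD, n = 20 cells), 662 ± 539 (n = 86) and 1379 ± 639.9 TPM (n = 32), log2 ratios of 1.71 and 1.06. Bin means were 251, 411, 779.7, 969.9 and 1426 TPM, and Spearman's rho with the order was 0.74 across the kept cells, the highest among the members. When 8 early genes alone ordered the cells it was 0.40, but that order ended with a cell of cluster 2 and not with the zona-expressing cells.

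*Ybx2* also took a growing share of its family. *Ybx1*, a Y-box paralogue, had means of 399.9, 506 and 465 TPM in clusters 1 to 3. *Ybx3*, another paralogue, had 90.8, 141.4 and 345 TPM. *Ybx2* made up 29.1%, 50.6% and 63% of the family's summed mean TPM. Counted as reads, without the length correction, the shares were 18.7%, 37.5% and 44.5%, so the climb remained but *Ybx2* did not reach the majority.

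*Zar1*, an RNA-binding protein gene named for the embryonic arrest of its mutants, lies at chr5:72576806-72581254 on the minus strand. It was sparse: 19 cells (13.8% of those kept, exact 95% interval 8.497 to 20.7%, counting error only) reached 1 TPM. These were 1 of 20, 6 of 86 and 12 of 32 cells of clusters 1, 2 and 3, or 5%, 6.98% and 37.5%. The highest cell held 14.6, 58.5 and 64.6 TPM in clusters 1, 2 and 3, while the medians were 0, 0 and 0.127 TPM. Means were 0.736, 1.19 and 7.42 TPM, with a log2 ratio of 1.94 in the later step that stayed between 1.59 and 2.48 when each cell was left out. The ratio of the first step, 0.33, rested on single cells, since it was -0.20 without 1 cell of cluster 2 and 1.12 without 1 cell of cluster 1. Cells at 1 TPM or more had a median of 140 *Zar1* reads. After every cell was thinned to 500000 reads, 40.6% of cluster 3 cells and 4.65% of cluster 2 cells still held a *Zar1* read. Its paralogue *Zar1l* averaged 0.535 TPM and reached 1 TPM in 6 cells.

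*Lsm14b*, an RNA-granule gene of the LSM14 family, lies at chr2:180024987-180035465 on the plus strand. It was found in 8 of 20, 58 of 86 and 30 of 32 cells of clusters 1, 2 and 3. Its lowest, median and highest levels were 0, 0.265 and 44.1 TPM in cluster 1, 0, 4.39 and 134.2 TPM in cluster 2, and 0.204, 16.3 and 105.1 TPM in cluster 3. The ranges overlapped, and the share of cells with the transcript was highest in cluster 3. The log2 ratios of the means were 1.04 and 0.64. The latter was under 1.5-fold, at 0.50, without 1 cell of cluster 3, and at 0.19 to 0.37 with the 3 other clusterings. *Lsm14a*, the paralogue, kept means of 31.6, 30.1 and 31 TPM, so that *Lsm14b* made up 19.7%, 36.2% and 46.7% of the pair.

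*Ddx6*, an RNA helicase of storage granules and P-bodies, lies at chr9:44604892-44640731 on the plus strand. Its lowest, median and highest levels were 0, 9.97 and 44.5 TPM in cluster 1, 0, 15.6 and 151 TPM in cluster 2, and 1.76, 30.9 and 92.6 TPM in cluster 3. All 32 cells of cluster 3 reached 1 TPM, against 71 of 86 in cluster 2. Means were 13.2 ± 12.7, 20.1 ± 22.4 and 34.4 ± 23.6 TPM (SD over cells), with log2 ratios of 0.57 and 0.74, the latter 0.39 with clusters from 2000 variable genes. Along the order it was not monotonic: bin 2 had the lowest mean, 11.2 TPM, and 19 of 28 cells at 1 TPM, after 13.5 TPM in bin 1 and before 23.1, 30.9 and 34.2 TPM in bins 3 to 5.

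*Patl2*, an oocyte member of the PAT1 repressor family, lies at chr2:122120108-122186189 on the minus strand. It was found in 7 of 20, 20 of 86 and 10 of 32 cells, and showed no build-up toward cluster 3 in TPM, with a log2 ratio of 0.04 for cluster 3 over 2 (0.76 when scaled by the spike-ins). The highest cells held 57.6, 53.3 and 51.1 TPM in clusters 1, 2 and 3, with medians of 0.127, 0 and 0 TPM. The means were 9.06, 4.33 and 4.49 TPM. The log2 ratio from cluster 1 to cluster 2, -0.92, was -0.49 without 1 cell of cluster 1, inside the band under 1.5-fold. Cells at 1 TPM or more held a median of 311 *Patl2* reads, so the zeros stood beside well-covered positive cells. The general paralogue *Patl1* had means of 19.6, 11.1 and 19.3 TPM and was the larger of the pair in every cluster.

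*Eif4e1b*, an oocyte form of the cap-binding protein eIF4E, lies at chr13:54783998-54788459 on the plus strand. It was low and highest early in the order. Bin means were 3.45, 8.47, 3.73, 2.51 and 1.79 TPM, and 15 of 28 cells of bin 2 reached 1 TPM against 7 to 11 in the other bins. The mean of bin 3 was 1.39 TPM without its highest cell, which held 66.9 TPM. Bin 2 remained highest when the cells were ordered by 8 early genes or by 2000 variable genes. Its highest level was 29.7, 66.9 and 10.1 TPM in clusters 1, 2 and 3, on medians of 0.633, 0.0862 and 0.604 TPM. Means were 4.301, 4.75 and 1.86 TPM, and the ratio of cluster 3 over 2 was -1.01 (-0.50 in CPM, that is reads scaled to equal library totals). That ratio changed sign, to 0.088, with clusters from 8 early genes. The ratio of cluster 3 over 1, -0.89, was -0.47 without 1 cell of cluster 1, -1.54 with each library counted on its own, and 0.027 with clusters from 8 early genes. A positive cell held a median of only 30.7 estimated reads, and after thinning 30.4% of cells held a read against 34.8% at 1 TPM. The general cap-binding gene *Eif4e* was far more abundant, at 898, 909 and 817 TPM, and *Eif4e1b* made up 0.418%, 0.453% and 0.202% of the family.

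*Cpeb1*, which encodes the protein that binds the cytoplasmic polyadenylation element, lies at chr7:81347026-81455465 on the minus strand. It was abundant from the start of the order and was level in TPM between clusters 2 and 3. The lowest, median and highest cells held 0.0506, 134.9 and 311 TPM in cluster 1, 10.5, 259.9 and 671 TPM in cluster 2, and 69.2, 253 and 541 TPM in cluster 3. Means were 154 ± 85.5, 287 ± 134.1 and 267 ± 102.1 TPM (SD over cells), log2 ratios of 0.89 and -0.10, and leaving out any 1 cell kept the latter between -0.15 and -0.07. That ratio was 0.20 in CPM and 0.81 when scaled by the spike-ins, where the median of all genes was 0.71. Bin 2 had the highest mean, 338 TPM, under the main order and both other orders. The coefficient of variation over cells, 0.490, was the lowest of the 10 members. With clusters from 2000 variable genes the first ratio was -0.015.

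*Cpeb1* made up 84.6%, 81% and 86.1% of the summed mean TPM of the 4 CPEB genes in clusters 1, 2 and 3. *Cpeb3* had means of 10.6, 13.6 and 34.9 TPM. *Cpeb2* averaged 26.7 TPM over all cells and 3.52 TPM without its highest cell, which held 3204 TPM, so its mean of 40.9 TPM in cluster 2 does not describe the other cells.

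*Pabpc1l*, the embryonic poly(A)-binding protein gene (*Epab*), lies at chr2:164025450-164050538 on the plus strand and was found in few cells. Only 4 cells (2.899% of those kept, exact 95% interval 0.795 to 7.26%) reached 1 TPM, 3 in cluster 1 and 1 in cluster 3. They held 44.1, 42.7, 37.1 and 23.96 TPM on 33, 28, 26 and 24 reads. No cell of cluster 2 reached 1 TPM, though 4 of its 86 cells held a read. The cluster ratios of this gene rest on these cells. Without the length correction, in CPM, its means were 0.565, 0.00731 and 0.0927 in clusters 1, 2 and 3, all under 1.

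The other poly(A)-binding protein genes exchanged places along the order. *Pabpc1* had bin means of 252, 226, 171, 127.5 and 101.97 TPM, and *Pabpc4* had 8.27, 18.7, 45.8, 151 and 234 TPM. Between the outer clusters *Pabpc1* had a log2 ratio of -1.28 and *Pabpc4* of 5.43, staying within -1.35 to -1.20 and 5.26 to 5.81 without any 1 cell, and the ratios were -0.43 and 6.07 when scaled by the spike-ins. In cluster 3, *Pabpc4* at 251 TPM stood above *Pabpc1* at 98.7 TPM, while *Pabpc1l* averaged 0.762 TPM.

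*Btg4*, the adaptor between maternal mRNAs and the deadenylase, lies at chr9:51060901-51119875 on the plus strand and showed the widest gap between clusters. The lowest, median and highest cells held 0, 0 and 54.7 TPM in cluster 1, 0, 0 and 121.8 TPM in cluster 2, and 0, 76.5 and 593 TPM in cluster 3. It reached 1 TPM in 3 of 20, 16 of 86 and 28 of 32 cells, or 15%, 18.6% and 87.5%. Means were 4.58 ± 13, 10.04 ± 27.4 and 140.01 ± 154 TPM (SD over cells), with log2 ratios of 0.99 and 3.68. The first was 0.25 when log values were averaged and 1.91 without 1 cell of cluster 1, whose mean was then 1.94 TPM. The step to cluster 3 was 3.52 to 3.86 without any 1 cell and 3.26 to 4.71 under the alternative scalings, pseudocounts and clusterings.

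*Btg4* was close to on or off in single cells. Of the 47 cells at 1 TPM or more, 44 held 10 TPM or more, 19 held 100 TPM or more, and only 3 lay between 1 and 10 TPM. A positive cell held a median of 666 reads, and thinning to 500000 reads left 84.4%, 19.8% and 15% of cells of clusters 3, 2 and 1 with a *Btg4* read. The positive cells outside cluster 3 were not all late in the order, since bins 1 to 4 held 4, 4, 4 and 7 of them and bin 5 held 0. Conversely, 4 cells of cluster 3 held under 0.1 TPM. *Btg4* counted 82.4% of its summed TPM in cluster 3, more than any other member.

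In cluster 1 the summed mean of the 5 other BTG and TOB genes was 152 TPM and *Btg4* made up 2.92% of the family. In cluster 3 their sum was 101.3 TPM and *Btg4* made up 58%, or 44.2% when counted in reads. The median of the share over the cells of cluster 3 was lower, 45.4% in TPM, and *Btg4* exceeded the sum of the others in 15 of the 32. *Tob1*, another adaptor of the deadenylase, was lower in cluster 3, with means of 44.6, 28.6 and 9.84 TPM in clusters 1 to 3 and a log2 ratio of -2.07 between the outer ones (-1.51 when scaled by the spike-ins). *Btg3* had 70.5, 53.7 and 44.4 TPM.

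*Cnot6l*, a catalytic deadenylase subunit of CCR4-NOT, lies at chr5:96070333-96164171 on the minus strand. Its lowest, median and highest levels were 0, 3.84 and 45.2 TPM in cluster 1, 0, 12.7 and 126.5 TPM in cluster 2, and 3.304, 18.7 and 48.6 TPM in cluster 3. All 32 cells of cluster 3 held it at 1 TPM or more, but the mean TPM was nearly the same in clusters 2 and 3, 19.6 ± 21.7 and 19.8 ± 10.9 TPM (SD over cells), after 10.4 TPM in cluster 1. With clusters from 2000 variable genes the first step, 0.85 here, was 0.09. The second, 0.01 here, was 0.50 in CPM and 1.13 when scaled by the spike-ins. The paralogue *Cnot6* had 14.8, 13.5 and 11.7 TPM, so that *Cnot6l* made up 41.3%, 59.2% and 62.8% of the pair.

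**Figure D3:**
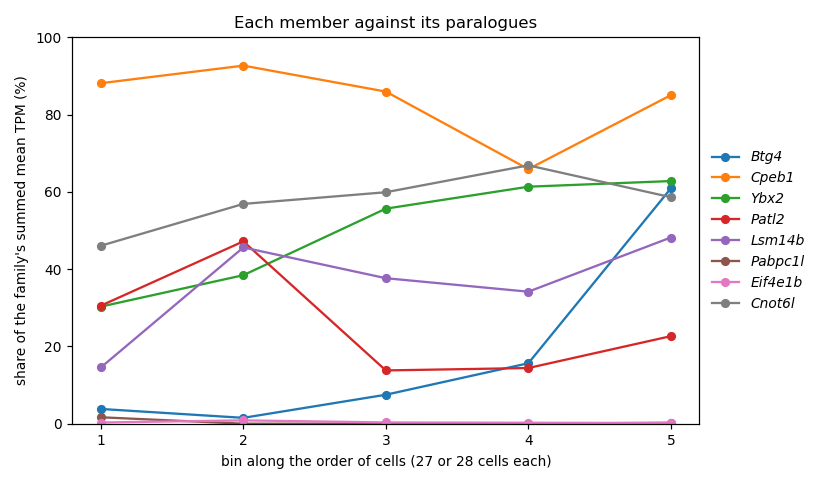
Share of each of 8 members in the summed mean TPM of itself and its paralogues, in percent, in the 5 bins of 27 or 28 cells along the order. Lines join the bins of 1 member, and *Btg4*, *Lsm14b* and *Ybx2* gain most while *Pabpc1l* and *Eif4e1b* stay near 0. The dip of *Cpeb1* in bin 4 comes with the 1 cell of high *Cpeb2*. *Zar1*, whose paralogue averaged 0.535 TPM, and *Ddx6*, for which no paralogue was listed, are not drawn.

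Between clusters 1 and 3, 6 of 10 other listed genes of CCR4-NOT stayed under 1.5-fold in TPM. *Cnot11* was only just under it, at a log2 ratio of -0.584 beside the cut of 0.585. Of 10 listed, 1 was higher and 3 were lower in TPM by 1.5-fold between clusters 1 and 3, where 26.4% and 38.8% of all genes were, with a median log2 ratio of -0.52 (-0.26 over all genes). The scaffold gene *Cnot1* had means of 63.4, 46.8 and 34.1 TPM, a ratio of -0.88, and *Cnot2* and *Cnot10* were the others lower, at -0.71 and -0.71. *Cnot4*, a ubiquitin ligase linked to the complex, was higher, at 0.70. The deadenylases *Cnot7* and *Cnot8* stayed under 1.5-fold in TPM, at -0.53 and 0.40, but *Cnot8* was at -0.74 in CPM and 1.02 when scaled by the spike-ins, and *Cnot7* at 0.19 and 0.23. Scaled by the spike-ins, 3 of the 10 were higher and 0 lower, where 48.2% and 19.8% of all genes were, and *Cnot1* was at -0.07.

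Among 15 other decay genes 6 were higher and 4 lower in TPM between the outer clusters, where 26.4% and 38.8% of all genes were. The higher ones were *Zfp36l2*, which binds AU-rich elements (6.93 to 33.8 TPM, a log2 ratio of 2.13), the helicase gene *Upf1* (1.49), the decapping factors *Dcp1a* (1.18) and *Dcp1b* (0.69), *Lsm1* (0.83) and the poly(A) nuclease subunit gene *Pan3* (0.64). The lower ones were *Zcchc11*, a terminal uridylyl transferase also named *Tut4* (66.7 to 23.3 TPM, -1.48), the enhancers of decapping *Edc3* (-1.29) and *Edc4* (-1.01), and the m6A reader *Ythdf2* (-0.88). Without 1 cell the ratio of *Dcp1b* was 0.26 and that of *Pan3* 0.49, both under 1.5-fold. Scaled by the spike-ins, 7 were higher and 2, *Zcchc11* at -0.76 and *Edc3* at -0.60, were lower, beside 48.2% and 19.8% of all genes.

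Of 9 partners in storage 1 was higher and 4 were lower in TPM, where 26.4% and 38.8% of all genes were, and 4 were higher and 2 lower when scaled by the spike-ins, where 48.2% and 19.8% were, *Fmr1* (-1.57) and *Caprin1* (-0.82) being lower on both. *Fmr1* went from 184 to 32.4 TPM (-2.47), *Caprin1* from 159 to 44.9 (-1.80) and *Igf2bp3* from 96.1 to 39.9 (-1.25), and *Dazl* was also lower (-0.93). *Igf2bp2* was the one higher, from 28.9 to 75.7 TPM (1.36). *Eif4enif1*, the repressor that bridges eIF4E and DDX6, had 115.6, 109.97 and 103.7 TPM. Of 8 cytoplasmic polyadenylation genes none was higher and 4 were lower in TPM, again beside 26.4% and 38.8% of all genes, *Cpsf2* (-0.90, or -0.58, just under 1.5-fold, without 1 cell of cluster 1), *Cpsf3*, *Sympk* and *Aurka*, while the poly(A) polymerase *Papd4*, also named *Tent2*, had 63.5, 49 and 52.5 TPM. Scaled by the spike-ins, 3 of the 8 were higher and 0 lower, again beside 48.2% and 19.8% of all genes.

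Of 4 messages known to be stored in oocytes 3 were higher in cluster 3 than in cluster 1 under all 3 scalings, where 26.4% of all genes were in TPM, 31.7% in CPM and 48.2% with spike-ins. *Mos*, the kinase gene translated at maturation, had means of 0.0117, 5.59 and 18.3 TPM in clusters 1 to 3, *Plat*, the tissue plasminogen activator gene, 0.0553, 17.2 and 55.7 TPM, and *Ccnb1*, encoding cyclin B1, 46.2, 50.1 and 91.5 TPM. *Tpx2*, a spindle gene, was lower in TPM, at 68.2, 40.4 and 40.9 TPM, a log2 ratio of -0.72 that was 0.13 when scaled by the spike-ins.

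The members differed in how they sat beside *Zp3*, which marks the zona-expressing cells and helped define the clusters. *Btg4* reached 1 TPM in 32 of 47 cells with *Zp3* at 10 TPM or more (68.1%, exact 95% interval 52.9 to 80.9%) and in 15 of 91 cells below (16.5%, 9.53 to 25.7%). For *Zar1* the shares were 29.8% and 5.49%, and for *Lsm14b* 91.5% and 58.2%. *Patl2* was found in 27.7% and 26.4%, and *Eif4e1b* in 38.3% and 33%. *Cpeb1* had means of 264 and 262 TPM and *Ybx2* of 1317 and 475 TPM.

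**Figure D4:**
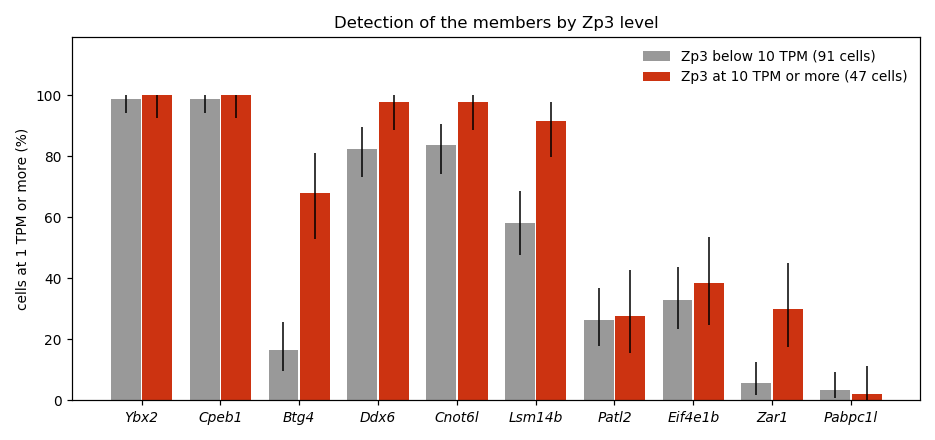
Share of cells at 1 TPM or more for each member, in percent, in 91 cells with *Zp3* below 10 TPM (grey) and 47 cells at 10 TPM or more (red). Error bars are exact 95% binomial intervals, for counting error only. *Btg4* goes from 16.5% to 68.1%, while *Patl2* is at 26.4% and 27.7%.

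Among themselves the members were loosely related. Spearman's rho across the kept cells, whose values share depth and RNA content within each library, ranged from -0.11 to 0.48 over the 45 pairs with a median of 0.12, and exceeded 0.3 in 6 pairs. The highest was *Zar1* with *Btg4*, and within cluster 3 that pair had 0.20. Of the 19 *Zar1* cells 16 were also *Btg4* cells, and 31 cells held *Btg4* without *Zar1*. *Btg4* with *Ybx2* had 0.39, with *Ddx6* 0.36 and with *Lsm14b* 0.31, and *Zar1* had 0.34 with *Pabpc1l* and 0.31 with *Ybx2*. A single cell of cluster 1 held *Zar1* at 14.6, *Btg4* at 54.7, *Pabpc1l* at 37.1 and *Patl2* at 12 TPM. The rho of *Btg4* with the number of genes detected in a cell was 0.54, beside 0.53 with the order, and that of *Ybx2* was 0.27, beside 0.74 with the order.

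The genes most like each member were sought among 7449 coding genes with a mean of 10 TPM or more. *Btg4* lay nearest, by rho, to *Zp3* (0.66), *Dpf3* (0.65) and *Zp1* (0.64), and *Zar1* to *Zp1* (0.49), *Zp3* (0.48) and *Nlrp14* (0.47), and *Zp1*, *Zp3* and *Nlrp14* are stage genes that helped set the clusters. *Ybx2* lay nearest to *Tmsb10* (0.81), *Dppa3* (0.71) and *Ldhb* (0.68). *Ddx6* followed *Zbed3* (0.49), *Ldhb* (0.49) and *Actb* (0.47), *Cpeb1* followed *Adad2* (0.44), *Piwil2* (0.41) and *Rnd2* (0.41), and *Lsm14b* followed *Vat1* (0.47), *Tfap4* (0.46) and *Rpl11* (0.45). For *Cnot6l*, *Eif4e1b*, *Patl2* and *Pabpc1l* no gene exceeded 0.37.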

How the data were processed

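The deposited files gave, for each of 146 libraries, Salmon values per gene symbol on mm10 with ERCC spike-ins: the authors' TPM, spike-ins included, and the authors' expected counts (estimated reads). The annotation release is not given in the sources used here. Libraries were compared by Pearson's r of log2(TPM + 1) across 8851 genes, and 7 pairs above 0.9 were averaged and each counted once. Seurat 5.3.0 under R 4.3.3, at resolution 0.25, grouped the cells anew from 18 genes named in the paper, other than *Ybx2* and *Zar1*, so these are not the authors' clusters. Among the 18, *Taf4b* is named in the paper but not where its text lists the clustering genes. Cluster 3 in particular holds fewer cells than the cluster 3 of the authors. Ratios compared mean TPM plus a pseudocount of 1 between clusters, over whichever of 19780 coding genes averaged 1 TPM or more in one of the pair, and a 1.5-fold difference counted as higher or lower. With 1 sample no test was made. The ratio was tested on simulated data in CPM, for cluster 3 over 2 only. Genes of few reads were left out there, so it does not cover *Pabpc1l* and *Eif4e1b*, which averaged 0.88 and 14.2 reads. In the text, genes are the members, their paralogues, 5 pathway lists and the 3 most similar genes per member. A gene of the storage list is not reported here and was left out of its counts. Coding status came from GENCODE M21, with 28006 symbols matched, and RefSeq. No exon of a member overlaps an exon of another GENCODE M21 gene. Members and lists were chosen with earlier results of these data known. In all, 15 alternatives were set beforehand and 2 were added after seeing the data, without the cell richest in haemoglobin and with each library on its own.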

Additional observations from a re-analysis of the deposited data

How the results depend on the processing

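The count of members past 1.5-fold was 7, 6 and 10 for cluster 2 over 1, 3 over 2 and 3 over 1, and stayed within 5 to 9, 4 to 9 and 8 to 10 under 10 settings of scaling, pseudocount, clustering and cells, 2 of them (without the cell richest in haemoglobin, and with each library on its own) chosen after seeing the data. Without any 1 cell it was 7 to 8, 5 to 6 and 9 to 10. Scaling by spike-ins moved the median log2 ratio of all genes for cluster 3 over 2 from -0.21 to 0.71, and the members' median was then 1.48, with 9 of 10 higher beside 56.5% of all genes. The number of members with their highest mean in the last bin, 5, was 1 when 8 early genes ordered the cells and 4 with 2000 variable genes. The order from 8 early genes does not end with the zona-expressing cells, so its last bin is not the same stage. Its last cell, at 2.52, belonged to cluster 2, while the last cell of the main order stood at 0.62. The number holding the majority of their family's summed means in cluster 3, 5, was 3 in reads. The called ratios that changed sign were those of *Eif4e1b*, at 0.027 for cluster 3 over 1 and 0.088 for cluster 3 over 2 with clusters from 8 early genes, and of *Cpeb1*, at -0.015 for cluster 2 over 1 with clusters from 2000 variable genes. *Btg4*, *Ybx2*, *Zar1*, *Lsm14b* and *Ddx6* kept a ratio above 1.5-fold for cluster 3 over 1 under all of these settings. With no filter on low levels 19780 genes were compared. The causes of these shifts were not tested. No paired analysis was possible because all cells form 1 group. The levels of *Eif4e1b* and *Pabpc1l* rest on few reads, which limits their precision at this depth.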
